A study of Homo sapiens with 4 samples.

Results

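The 10 genes described here act in cytosolic DNA sensing and were followed by symbol through the deposited expression table of 20323 genes, and all 10 were found in it. They are the sensors *CGAS*, *IFI16*, *AIM2*, *PYHIN1* and *ZBP1*, the adaptor *STING1*, its kinase *TBK1*, and 3 enzymes that remove nucleic acids or their building blocks, *TREX1*, *SAMHD1* and *RNASEH2A*. The samples were 4 RNA-seq libraries of NK-92, a human natural killer (NK) cell line grown in 100 IU/ml of IL-2. NK scramble cells (2 libraries) carried a lentiviral control shRNA, and NK shADAR1 cells (2 libraries) carried a lentiviral shRNA against ADAR1, the RNA-editing enzyme encoded by *ADAR*. Both groups had been transduced by spinning with lentivirus in 8 μg/mL polybrene. The labels end in the numbers 1 and 2, which were read as the 2 biological replicates of each group. The study also numbers its 2 hairpins in this way, and its paper names shADAR1-2 as the hairpin of the sequenced knockdown cells. Below, the NK scramble libraries are the controls and the NK shADAR1 libraries the knockdown, and paired values are in the order of replicates 1 and 2. The comparison asks how these genes differed once ADAR1 was knocked down.

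DNA in the cytosol is treated by a cell as a sign of infection or damage. cGAS binds it and makes the cyclic dinucleotide cGAMP, which activates STING on the endoplasmic reticulum. STING then recruits TBK1, which phosphorylates IRF3 to start transcription of type I interferon. IFI16, AIM2 and PYHIN1 belong to the HIN-200 (PYHIN) family, whose genes lie side by side on chromosome 1, and ZBP1 recognises left-handed Z-form nucleic acid through the same kind of domain that the p150 form of ADAR1 carries. TREX1 degrades cytosolic DNA, SAMHD1 hydrolyses dNTPs, and RNASEH2A is the catalytic subunit of RNase H2, which removes ribonucleotides from DNA. Loss of any of these 3 enzymes, or of ADAR1, causes the interferon disease Aicardi-Goutières syndrome in humans. Many of the sensors are themselves known to be interferon-inducible.

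Promoter windows in RefSeq (GRCh38.p14), which run from 250 bases before to 50 bases after the annotated start, were at hand for 7 of the 10 genes, with 2 windows for *IFI16*. They were searched on both strands for 3 motifs that interferon-activated factors bind, because several of these genes are interferon-inducible. The motifs were the interferon-stimulated response element, taken as GAAA, any 2 bases and GAAA again, the shorter GAAANNGAA that every such element contains, and TTCNNNGAA, the gamma-activated site. They occurred in 3.57%, 8.11% and 7.66% of all 35116 promoter windows. Of the 7 genes, the 3 of the HIN-200 family held a match, *IFI16* in its second window. The 30 bases around each are shown on the strand of the gene, with the matched letters, which read as the motif on the other strand, in capitals.
PYHIN1, chr1:158931452-158931481, plus strand: aaagaaactgTTCATTTTCtctaacaggat
IFI16, chr1:159009823-159009852, plus strand: caggaaactgTTCATTTTCtctgactaaca
AIM2, chr1:159076937-159076966, minus strand: tctaggccacTTTCTGTTTCcaatcagtgt
The *PYHIN1* and *IFI16* windows were identical at 22 of 30 positions. They shared the unbroken run gaaactgttcattttctct of 19 bases, which was found in 2 of the 35116 windows, those of these genes. The *AIM2* match was the full interferon-stimulated response element. None of the 7 genes held TTCNNNGAA. These matches describe the sequence and were not tested for binding.

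The libraries held 37881704 to 39960491 estimated counts each, so counting error was small for all 10 genes. NK markers were present, with *NCAM1* at 573 to 695 CPM (counts scaled to a common library total after TMM normalization), while *MS4A1* and *CD8A* were at 0 in every library. Summed levels of the 11 NK markers were 5028.9 to 5766.6 CPM. Of markers of other cells, summed levels were 112.7 to 168.3 CPM for 6 T cell genes (nearly all *CD28*), at most 46.1 CPM for 4 B cell genes (mainly *PAX5*, 19.1 to 43.8 CPM) and 24.1 to 33.7 CPM for 6 myeloid genes (mostly *ITGAM*). *ADAR* was at 655 and 682 CPM in the control libraries against 575 and 482 CPM in the knockdown libraries, with a log2 fold change of -0.34 (standard error 0.20, adjusted p = 1.00 from edgeR). It was lower in both knockdown libraries and did not pass the test. By edgeR's quasi-likelihood test, 0 of 11810 tested genes (0%) passed both an adjusted p of 0.05 and a 1.5-fold difference. DESeq2 also gave 0. The paper reports differentially expressed genes from DESeq2 at the same thresholds, and the reason for this difference was not tested. By gene set enrichment analysis it also reports cytosolic DNA sensing genes as repressed in the knockdown, and no such analysis was run here. At an unadjusted p under 0.05 in edgeR there were 293 genes (2.48%). With 1 library left out, the adjusted count was 47 without NK scramble replicate 1, 2 without NK scramble replicate 2, 16 without NK shADAR1 replicate 1 and 1 without NK shADAR1 replicate 2. A lone library is then assumed to vary like the other group. None of the 10 genes was among these calls.

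All 10 genes passed the filter on low counts. *CGAS* was lower and *PYHIN1* higher in both NK shADAR1 libraries than in both NK scramble libraries, and the other 8 overlapped between the groups. Across all tested genes, 25.9% did not overlap. The 10 held 1 such gene that was lower, against 12.6% of tested genes, and 1 that was higher, against 13.3%. The same 2 of 10 had an unadjusted p under 0.05 in edgeR, against 2.48% of tested genes (0.779% lower and 1.7% higher). Both also passed a fold change of 1.5, as did 1.8% of tested genes (0.542% lower and 1.26% higher). Of the 10 log2 fold changes, 5 were below 0, as for 50% of tested genes, and their median was -0.027, against 0.00 for all tested genes. Adjusted p was 1.00 for each of the 10. RNA from whole cultures was measured, so less RNA per cell cannot be told apart from fewer expressing cells.

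**Figure D1:**
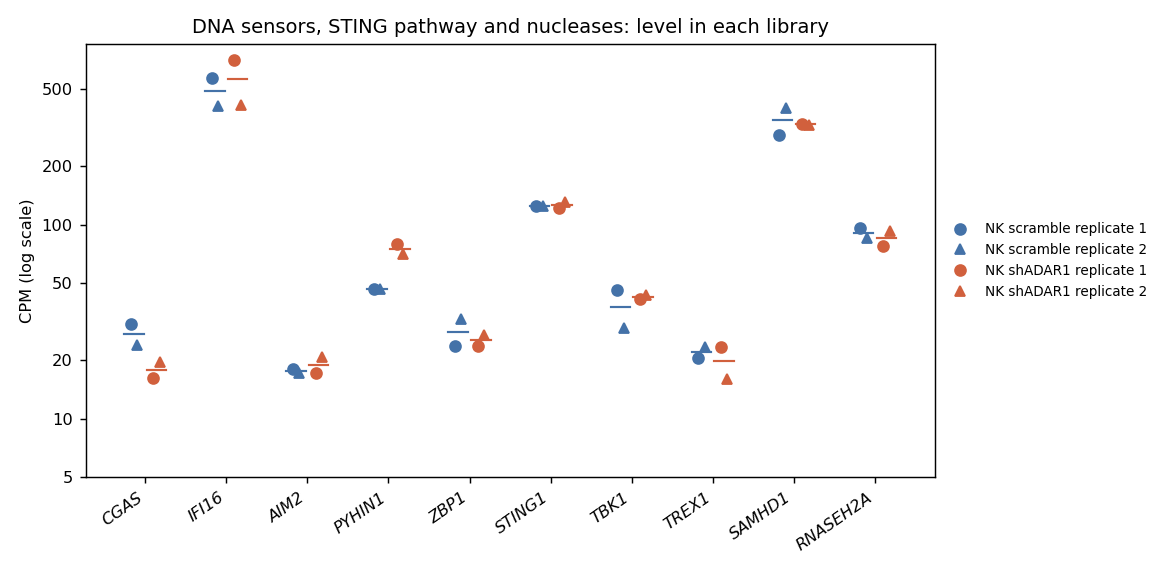
CPM on a log scale (vertical axis) of each of the 10 genes (horizontal axis) in the 4 libraries, with a bar at each group mean (n = 2 per group). The *CGAS* points of NK shADAR1 lie below, and the *PYHIN1* points above, both NK scramble points, while the groups overlap for the other genes.

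Among the sensors, *CGAS* (ENSG00000164430), the source of cGAMP, is at positions 73413515 to 73452276 of chromosome 6 (minus strand, GRCh38, GENCODE release 29). It had 30.9 and 24.1 CPM in the control libraries against 16.1 and 19.7 CPM in the knockdown libraries. Both knockdown libraries were below both controls. The means were 27.5 ± 4.77 and 17.9 ± 2.54 CPM (SD, n = 2 each), and the log2 fold change was -0.62 (standard error 0.22, 95% interval -1.11 to -0.12). The unadjusted p was 0.0202 in edgeR, which takes its estimate of spread partly from other genes. The difference did not pass after adjustment over all genes. Without NK scramble replicate 1 its log2 fold change was -0.43 (unadjusted p = 0.146 in edgeR), and without NK shADAR1 replicate 1 it was -0.48 (unadjusted p = 0.124 in edgeR).

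The FPKM values of *CGAS*, which the authors scaled by transcript length, were 11.99 and 8.05 in the control libraries against 6.65 and 6.17 in the knockdown libraries. The order of the groups was the same on this scale, with the controls further apart. The transcript length implied by the ratio of estimated count to FPKM was 2.60 and 2.95 kb in the controls, and 2.52 and 3.10 kb in the knockdown. It was longer in replicate 2 of both groups, whereas that of *STING1* stayed within 2.03 to 2.05 kb over the 4 libraries. The gene *DDX43* on the opposite strand shares 180 exon bases with *CGAS*, or 4.33% of the *CGAS* exon bases, and whether counting used strand is not given in the sources used here. *DDX43* had 4.23 and 4.68 CPM in the control libraries against 8.06 and 5.68 CPM in the knockdown libraries, the opposite order to *CGAS*.

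The gene with the largest absolute log2 fold change of the 10 was *PYHIN1* (ENSG00000163564), a HIN-200 gene of lymphocytes on the plus strand of chromosome 1 from 158930796 to 158977054. It had 46.5 and 46.5 CPM in the control libraries against 79.4 and 70.9 CPM in the knockdown libraries. The groups were well separated, and the replicates of each lay close together. Its log2 fold change was 0.69 (standard error 0.20, 95% interval 0.26 to 1.12), a 1.61-fold higher level, with an unadjusted p of 0.00512 and an adjusted p of 1.00 in edgeR. With each library left out in turn the log2 fold change stayed between 0.61 and 0.77 and the unadjusted p between 0.00999 and 0.0317. In FPKM it had 27.7 and 26.5 in the control libraries against 47.3 and 39.6 in the knockdown libraries.

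*IFI16* (ENSG00000163565), the neighbouring HIN-200 gene and a sensor of nuclear and cytosolic DNA, lies on the plus strand from 158999968 to 159055155. It had 569 and 412 CPM in the control libraries against 708 and 416 CPM in the knockdown libraries. Replicate 1 was the higher library in both groups, and the groups overlapped. The replicates differed 1.38-fold in NK scramble and 1.70-fold in NK shADAR1 cells. The log2 fold change was 0.20 (standard error 0.28, 95% interval -0.42 to 0.81). This value was -0.24 without NK shADAR1 replicate 1 and -0.021 without NK scramble replicate 2. So *IFI16* had no direction that held in every subset of libraries. Its second promoter window shares the run shown above with *PYHIN1*, and any bearing of that run on these levels was not tested.

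*AIM2* (ENSG00000163568), which assembles an inflammasome on DNA, is the next gene on the minus strand, from 159062484 to 159147096. It had 18.1 and 17.2 CPM in the control libraries against 17.2 and 20.7 CPM in the knockdown libraries. The groups overlapped, and its log2 fold change was 0.10 (95% interval -0.37 to 0.58), or -0.037 without NK shADAR1 replicate 2. *MNDA*, the remaining human gene of the family and a myeloid gene, had at most 1 count in any library. The 3 expressed HIN-200 genes therefore had log2 fold changes of 0.69, 0.20 and 0.10, and differences among these values were not tested.

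*ZBP1* (ENSG00000124256), on chromosome 20 from 57603846 to 57620576, had 23.6 and 32.7 CPM in the control libraries against 23.8 and 27.1 CPM in the knockdown libraries. Both knockdown libraries lay between the controls. The log2 fold change of *ZBP1* was -0.15 (standard error 0.23, 95% interval -0.65 to 0.35), and it was 0.10 without NK scramble replicate 2.

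**Figure D2:**
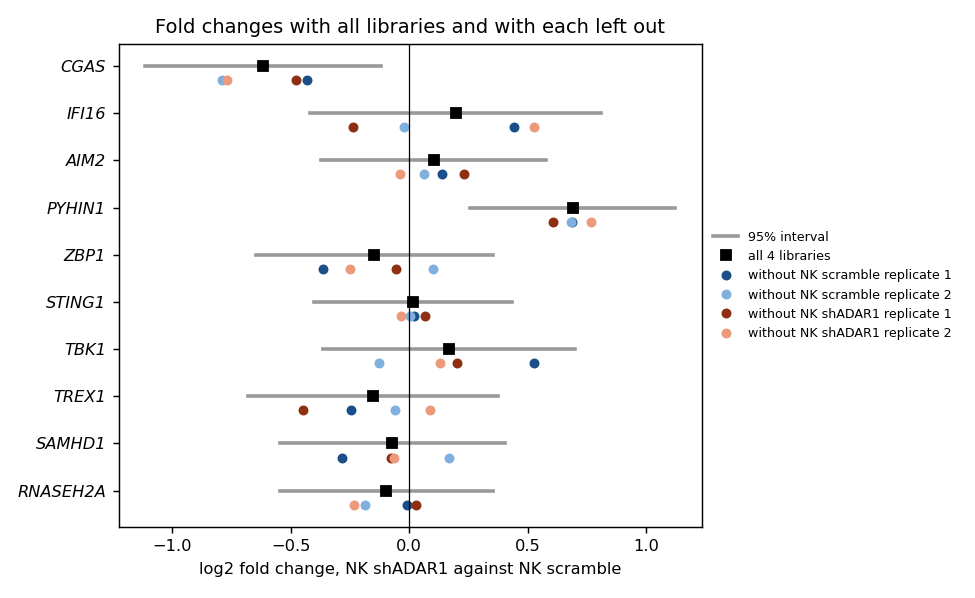
Log2 fold change of NK shADAR1 against NK scramble (horizontal axis) for each gene (vertical axis), from edgeR on all 4 libraries (squares, with 95% intervals as lines) and with each library left out (circles). The intervals of *CGAS* and *PYHIN1* lie to one side of 0, and the circles of the other 8 genes fall on both sides of it.

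*STING1* (ENSG00000184584), on chromosome 5 from 139475534 to 139482935, encodes the adaptor that cGAMP activates. It had 126 and 125 CPM in the control libraries against 122 and 131 CPM in the knockdown libraries. The 4 libraries were nearly level, and the knockdown libraries lay on either side of the controls. Its log2 fold change was 0.017 with a standard error of 0.19. The 95% interval of -0.40 to 0.44 corresponds to a level from 24.3% lower to 35.3% higher. With 2 libraries per group, differences within that interval are not excluded. Its FPKM values ran from 60.3 to 62.6 over the 4 libraries.

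*TBK1* (ENSG00000183735), the kinase that STING recruits, lies on chromosome 12 from 64451880 to 64502108. It had 46.0 and 29.2 CPM in the control libraries against 41.2 and 43.3 CPM in the knockdown libraries. The controls differed 1.57-fold and enclosed both knockdown libraries. Its log2 fold change was 0.17 (standard error 0.24, 95% interval -0.36 to 0.70). This value was 0.53 without NK scramble replicate 1 and -0.13 without NK scramble replicate 2. The antisense gene AC135279.3 on the opposite strand shares 14.7% of the exon bases of *TBK1* and is absent from the deposited genes.

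Of the enzymes, *TREX1* (ENSG00000213689) lies on chromosome 3 from 48465811 to 48467645. It had 20.6 and 23.4 CPM in the control libraries against 23.5 and 16.1 CPM in the knockdown libraries. NK shADAR1 replicate 2 was the lowest library and replicate 1 the highest. For *TREX1* the log2 fold change was -0.15 (standard error 0.24, 95% interval -0.68 to 0.38), -0.45 without NK shADAR1 replicate 1 and 0.090 without replicate 2. All 1515 exon bases of *TREX1* are also annotated in *ATRIP*, a gene of the DNA damage response on the same strand. The estimated counts of *TREX1* were not all whole numbers, and the division of reads between the pair makes its level uncertain. *ATRIP* had 30.4 and 26.1 CPM in the control libraries against 24.2 and 24.1 CPM in the knockdown libraries.

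*SAMHD1* (ENSG00000101347), on chromosome 20 from 36889773 to 36951901, had 292 and 399 CPM in the control libraries against 331 and 327 CPM in the knockdown libraries. The knockdown libraries agreed closely and lay between the controls. The fitted log2 fold change was -0.071 (standard error 0.21, 95% interval -0.55 to 0.41), and 0.17 without NK scramble replicate 2. *TLDC2* on the opposite strand shares 10.3% of its exon bases and had at most 2.85 CPM.

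*RNASEH2A* (ENSG00000104889), on chromosome 19 from 12806556 to 12815201, had 96.3 and 85.5 CPM in the control libraries against 77.4 and 92.7 CPM in the knockdown libraries. The groups overlapped, with a log2 fold change of -0.096 (standard error 0.20, 95% interval -0.54 to 0.35), which was 0.030 without NK shADAR1 replicate 1. *THSD8* on the same strand shares 30.8% of the exon bases of *RNASEH2A* and had at most 0.161 CPM.

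Per transcript length, *IFI16* was the most abundant of the 10, with a mean of 203 FPKM over the 4 libraries (range 157 to 279), above 96.8% of tested genes. *SAMHD1* at 77.2 FPKM and *RNASEH2A* at 75.8 FPKM came next, and their ranges overlapped. *STING1* followed at 61.8 FPKM and *PYHIN1* at 35.3 FPKM, each apart from its neighbours in every library. *TREX1*, *ZBP1*, *TBK1* and *AIM2* lay between 13.04 and 19.96 FPKM, and each overlapped the next in this order. *CGAS* had the lowest mean, at 8.22 FPKM (range 6.17 to 11.99), above 42.3% of tested genes. Its range overlapped those of *ZBP1* and *TBK1*, and in NK scramble replicate 1 it was at 11.99 FPKM against 11.89 FPKM for *ZBP1*. In NK-92 cells the adaptor STING thus had a higher transcript level per length than the enzyme that makes its ligand, in each of the 4 libraries.

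**Figure D3:**
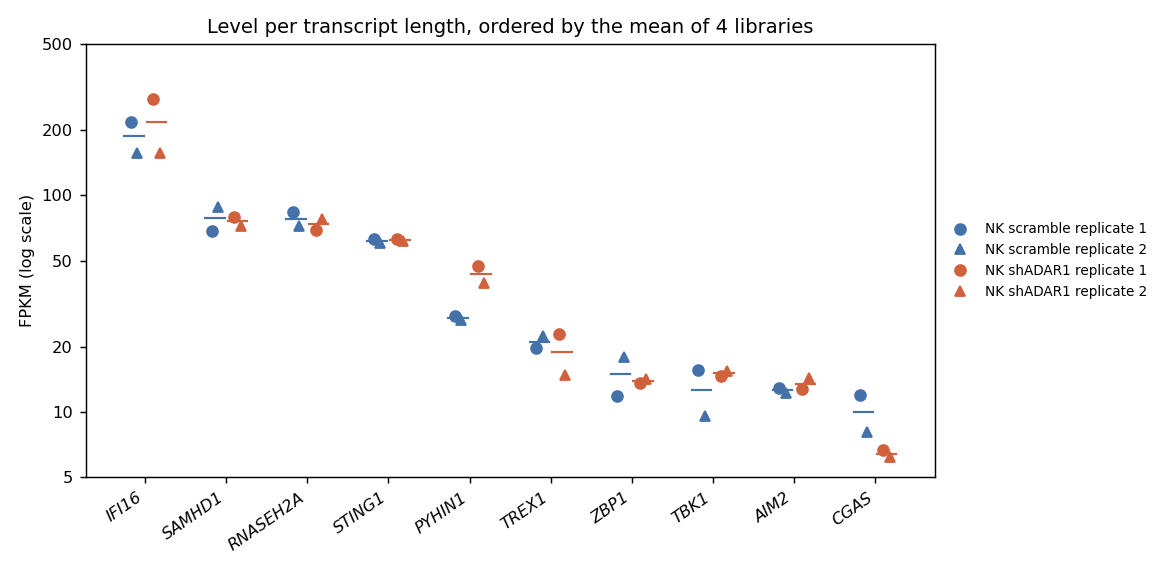
FPKM on a log scale (vertical axis) of the 10 genes (horizontal axis, ordered by the mean of the 4 libraries), with a bar at each group mean (n = 2 per group). *IFI16* stands alone at the top, *CGAS* has the lowest mean and overlaps *ZBP1* and *TBK1*, and *TREX1*, *ZBP1*, *TBK1* and *AIM2* overlap.

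The widest range of log2 CPM over the 4 libraries was that of *CGAS*, at 0.93. Among 9294 other tested genes with a mean of at least 5 CPM, those whose centred log2 CPM came nearest to it over the 4 libraries were ENSG00000255439, which matched no symbol, *MPZL1* and *SLC3A2*, with root mean square differences of 0.031, 0.050 and 0.050 on the log2 scale. *SLC3A2*, the heavy chain of several amino acid transporters, had 225 and 165 CPM in the control libraries against 122 and 141 CPM in the knockdown libraries. With 4 libraries, likeness of this degree is a description only.

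Beside these genes, 12 interferon-response genes were lower in both NK shADAR1 libraries than in both controls, as were 12.6% of tested genes. Of these 12, 10 had an unadjusted p under 0.05 in edgeR, against 0.779% of tested genes that were lower at this threshold, and 0 passed after adjustment. For example, *USP18*, which removes ISG15 from proteins, was at 37.5 and 39.3 CPM in the control libraries against 21.6 and 15.5 CPM in the knockdown libraries. *MX1*, an antiviral GTPase, had 565 and 519 CPM in the control libraries against 293 and 60.8 CPM in the knockdown libraries. Others at an unadjusted p under 0.05 included *ISG15*, *IFI6*, *IFIT1*, *OAS1*, *OAS2*, *IFI44L* and *IFI27*, with log2 fold changes from -1.87 for *IFI44L* to -1.06 for *ISG15*. Against the NK scramble mean, the median log2 ratio of the 12 was -0.74 in NK shADAR1 replicate 1 and -1.79 in replicate 2. The same medians for the 10 DNA-sensing genes were -0.034 and -0.013. The 12 genes were all lower again with any library left out, which the separation of the groups already implies and which adds no further evidence. Whether the interferon-response genes and the 10 genes differ in response was not tested, and the former were already known to be low in these libraries when they were listed.

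**Figure D4:**
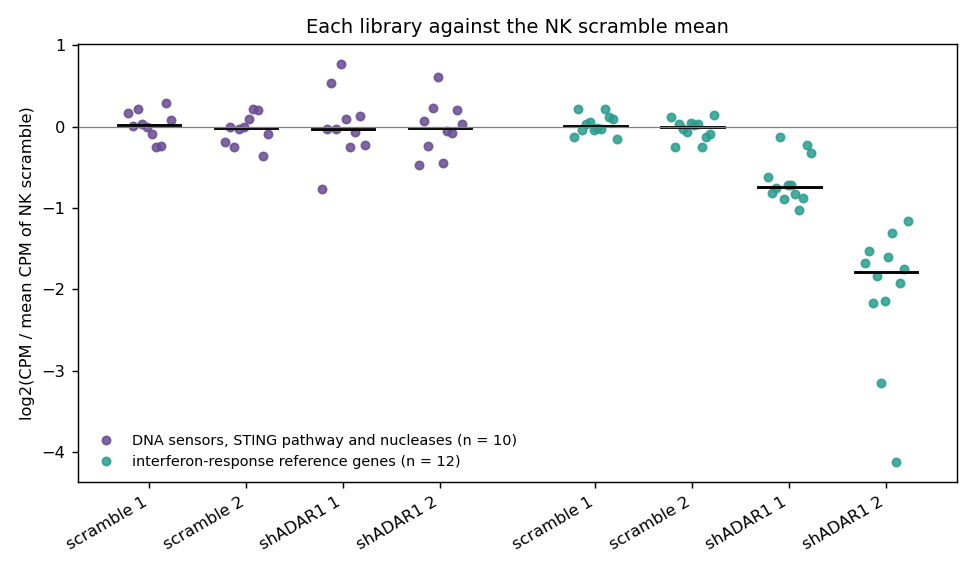
Log2 ratio of CPM to the mean of the NK scramble libraries (vertical axis) in each library (horizontal axis), for the 10 DNA-sensing genes and for 12 interferon-response genes. Points are genes and bars are medians, which stay near 0 for the 10 genes and reach -0.74 and -1.79 for the interferon-response genes in the knockdown libraries.

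Among other DNA sensors and cofactors, 17 of 18 were tested, with 7 lower, 10 higher and a median log2 fold change of 0.079. None had an unadjusted p under 0.05. *RAD50* and *MRE11*, of the complex that binds DNA breaks, had log2 fold changes of 0.39 and 0.28, and *PRKDC*, the DNA-dependent protein kinase, had 0.31. *PRKDC* was at 965 CPM in NK shADAR1 replicate 1 against 580 to 683 CPM elsewhere, and its value was -0.083 without that library. *RAD50* had 0.75 without NK scramble replicate 1 and 0.092 without NK scramble replicate 2, and *MRE11* had 0.19 without NK shADAR1 replicate 1. The list's median was -0.12 without NK scramble replicate 1. Of the RNA polymerase III subunits, which turn AT-rich DNA into RNA ligands of RIG-I, 12 of 13 had log2 fold changes below 0 and the median was -0.15. With 1 library left out, 9 to 12 of the 13 were below 0, the fewest without NK shADAR1 replicate 1, where the median was -0.047. *POLR3G* and *CRCP* had log2 fold changes of -0.27 and -0.22 and *POLR3B* of 0.22, none at an unadjusted p under 0.05. Without NK scramble replicate 1, *POLR3G* had 0.13 and *POLR3B* -0.0083, and without NK shADAR1 replicate 1, *POLR3G* had -0.021, *CRCP* -0.081 and *POLR3B* 0.087.

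Of 15 genes of STING traffic and turnover, 11 were lower and 4 higher, with a median log2 fold change of -0.089, which was 0.019 without NK shADAR1 replicate 1. *INSIG1*, which retains sterol sensors in the endoplasmic reticulum, was the only one at an unadjusted p under 0.05 in edgeR (0.0384, adjusted p = 1.00). It had 613 and 428 CPM in the control libraries against 252 and 412 CPM in the knockdown libraries, a log2 fold change of -0.65. It rested on NK shADAR1 replicate 1 and NK scramble replicate 1, without which the value was -0.34 and -0.37. *SURF4*, a cargo receptor that returns STING to the endoplasmic reticulum, had -0.22 and *NLRC3*, an inhibitor of STING, had 0.23. Without NK shADAR1 replicate 1 these values were -0.11 and 0.052.

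Around TBK1, 14 of 15 partners and targets were tested, with 8 lower, 6 higher and a median log2 fold change of -0.090, which was 0.018 without NK scramble replicate 1. None had an unadjusted p under 0.05. *IRF7*, an interferon-inducible transcription factor that TBK1 phosphorylates, had 75.9 and 38.4 CPM in the control libraries against 39.2 and 5.94 CPM in the knockdown libraries. The groups overlapped and NK shADAR1 replicate 2 was far below the rest. Its log2 fold change of -1.34 (standard error 0.63) was -0.55 without that library and -3.26 without NK shADAR1 replicate 1. *TRAF3* had -0.33 and *IKBKE*, the kinase most like TBK1, had 0.29, or 0.094 without NK scramble replicate 1. Of the 7 tested genes of cGAMP breakdown and transport, 5 were lower, with a median of -0.10. The cGAMP importer *SLC19A1* had a log2 fold change of -0.36, and 0.027 without NK scramble replicate 1. *ABCC1*, a cGAMP exporter, had -0.21, or -0.035 without NK shADAR1 replicate 1. *LRRC8A*, of the volume-regulated anion channel, had -0.18, or -0.080 without NK scramble replicate 1. *ENPP1*, the hydrolase of extracellular cGAMP, had 0 to 5 counts.

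Several partners through which these sensors act were at or near 0 counts. *DDX3X*, a TBK1 partner that most cells express, also had only 1 to 9 counts, and the counting program is not given in the sources used here, so a low count need not mean a low transcript level. *PYCARD*, the adaptor that joins AIM2 to caspase-1, had 2 to 16 counts per library, *IL1B* had 0 to 3 and *IL18* had 0 in every library. *CASP1* and *CASP4* were present at 69.6 to 85.9 and 98.1 to 124 CPM, with log2 fold changes of 0.18 and 0.17, and *GSDMD* had -0.18, or -0.0063 without NK scramble replicate 1. Over the 5 tested inflammasome genes, 4 were higher and the median was 0.17. *RIPK3*, the kinase through which ZBP1 triggers necroptosis, had 0 counts in all 4 libraries, whereas its substrate *MLKL* had 18.2 to 29.9 CPM. The other named partners of ZBP1 had log2 fold changes of 0.063 for *RIPK1*, -0.075 for *CASP8* and -0.061 for *FADD*. With 1 library left out, *RIPK1* ran from -0.15 to 0.30 and *CASP8* from -0.24 to 0.080, so neither kept a direction. The median over the 5 tested genes was 0.050, and it was -0.039 without NK scramble replicate 1 and -0.051 without NK shADAR1 replicate 1.

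Other enzymes that dispose of nucleic acids were divided in direction. Of 12 tested genes of 16, 7 were lower and 5 higher, with a median log2 fold change of -0.017. That median was 0.033 to 0.089 with any library left out. For 4 of the 12, both knockdown libraries were above both controls, against 13.3% of tested genes. For 0 of them, both were below, against 12.6%. *DNASE1L1* and *DNASE1* had log2 fold changes of 0.33 and 0.26 and *RNASEH1* of -0.19. Without NK shADAR1 replicate 1, *RNASEH1* had 0.032 and *DNASE1* 0.10, and without NK shADAR1 replicate 2, *RNASEH1* had -0.46. The list of other Aicardi-Goutières genes includes *ADAR*, which the shRNA was meant to lower. Of its 5 genes, 4 were lower, with a median of -0.32. Besides *ADAR*, these were *IFIH1*, which encodes the RNA sensor MDA5, at -0.58, *LSM11*, of the histone mRNA processing complex, at -0.32, and *RNASEH2B*, another subunit of RNase H2, at -0.016. *IFIH1* was -0.21 without NK shADAR1 replicate 2, and the list's median was -0.11 without NK shADAR1 replicate 1. None of these genes had an unadjusted p under 0.05.

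Transcripts that STING signaling is known to induce were mostly scarce. *IFNB1* had 3 and 18 counts in the controls, and 10 and 0 in the knockdown, *CXCL10* had 1 to 5 and *CXCL9* had 0. *CCL5*, which NK cells make constitutively, was at 974 and 1067 CPM in the control libraries against 1103 and 1170 CPM in the knockdown libraries, a log2 fold change of 0.16. *TNF* had -0.18 and *CCL4* -0.15, and *CCL4* varied from 65.6 to 195 CPM between the controls. The value of *CCL4* was -0.73 without NK scramble replicate 1 and 0.84 without NK scramble replicate 2, and that of *TNF* was -0.019 without NK shADAR1 replicate 1. Of the 5 tested genes, 4 were lower, with a median of -0.18, and none had an unadjusted p under 0.05 in edgeR. Without NK scramble replicate 2 the median was 0.040, over the 4 of these genes still tested.

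**Figure D5:**
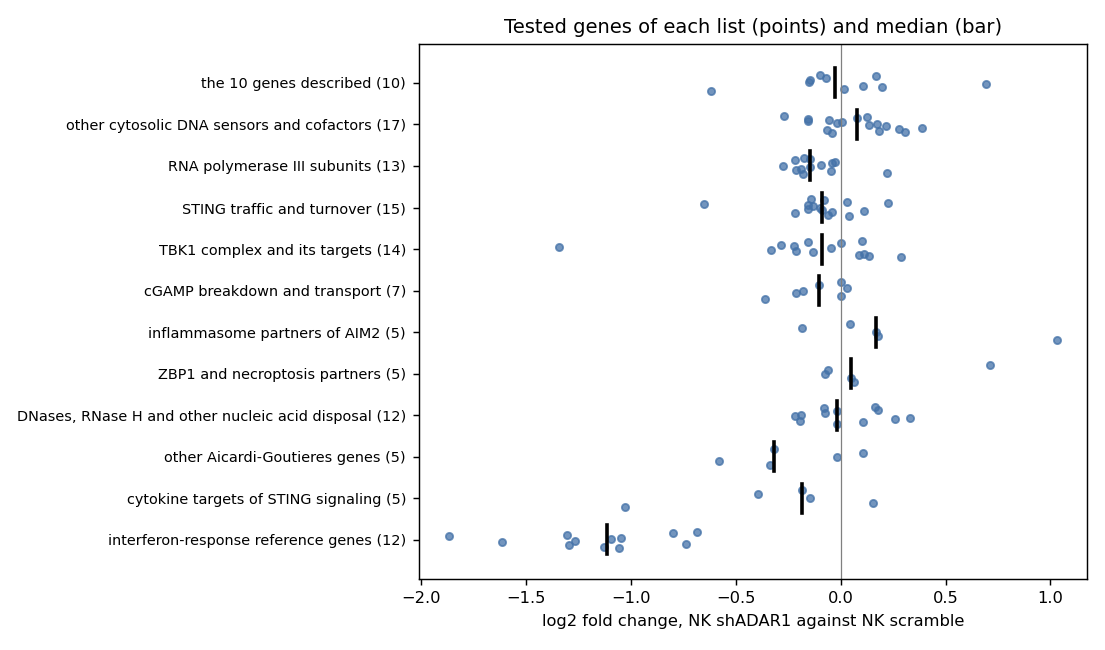
Log2 fold change of NK shADAR1 against NK scramble (horizontal axis) of each tested gene (points) in the 10 genes described and in the other lists (vertical axis, number tested in brackets), with a bar at the median. All list medians lie between -0.32 and 0.17 apart from that of the interferon-response genes, at -1.11.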

How the data were processed

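Oligo(dT)-selected mRNA was sequenced on an Illumina NovaSeq. The submitters' processing notes name fastp 0.18.0. The aligner, counting program and build are not given in the sources used here. The authors deposited estimated counts (not whole for 12.1% to 12.9% of values per library, unscaled) and FPKM values. Of 20323 Ensembl identifiers, 20301 matched a symbol.

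Estimated counts were rounded, filtered (filterByExpr, minimum count 10), scaled by TMM and tested without covariates by edgeR 4.0.16 quasi-likelihood (R 4.3.3) over 11810 genes, with Benjamini-Hochberg adjustment. Standard errors are the log2 fold change over the square root of F. FPKM served for levels between genes and, as log2 values with pseudocounts of 1 and 0.1, for limma 3.58.1. DESeq2 1.42.0, other scalings and filters, the replicate number as a block, removal of a gene length trend (spline, 4 degrees of freedom) and each library left out were alternatives. Transcript length per library was implied from count, FPKM and library total. The scripts were tested on simulated counts. Loci come from GENCODE release 29 (GRCh38).

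The 10 genes and the lists were chosen with earlier results of these data known. All 10 are named, and of each list up to 3 tested genes with at least 5 CPM and the largest absolute log2 fold change, plus any with an unadjusted p under 0.05. *NCAM1*, other marker genes, genes at or near 0 counts, *MLKL* and *RNASEH2B* were added after their values were seen. The study's design text calls the 2 replicates independent, while the sample labels only number them. An exact permutation test cannot pass with 2 against 2, so none was run. A gene that the naming rule selects is not reported here.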

Additional observations from a re-analysis of the deposited data

How the results depend on the processing

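In the 13 alternative fits, adjusted p stayed above 0.05 for all 10, and the number lower in NK shADAR1 cells was 5, or 6 without NK shADAR1 replicate 2. For *CGAS* the log2 fold change ranged from -0.79 to -0.43 (adjusted p 0.438 to 1.00) and for *PYHIN1* from 0.61 to 0.77 (adjusted p 0.188 to 1.00). Genes called over the whole table numbered 213 at an unadjusted p with the fold threshold, and 1 to 47 with each library left out. With the replicate number as a block there were 13 calls. The numbers mark no stated pairing, and the deviations of same-numbered libraries correlated at 0.308 over tested genes. The 10 genes with an unadjusted p under 0.05 numbered 1 under limma on log2(FPKM + 0.1), and 1 to 2 with each library left out.

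Directions turned when a library was left out. The ranges were -0.036 to 0.066 for *STING1*, -0.24 to 0.53 for *IFI16*, -0.037 to 0.23 for *AIM2*, -0.45 to 0.090 for *TREX1*, -0.37 to 0.10 for *ZBP1*, -0.28 to 0.17 for *SAMHD1*, -0.13 to 0.53 for *TBK1* and -0.23 to 0.030 for *RNASEH2A*. List medians ranged from -0.12 to 0.13 for other DNA sensors, -0.26 to -0.047 for polymerase III, -0.22 to 0.019 for STING traffic, -0.078 to 0.018 for the TBK1 complex, -0.15 to -0.0044 for cGAMP, 0.063 to 0.27 for the inflammasome, -0.051 to 0.23 for ZBP1 partners, 0.033 to 0.089 for nucleases, -0.35 to -0.11 for Aicardi-Goutières genes, -0.62 to 0.040 for cytokines and -1.79 to -0.74 for the interferon-response genes.

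Other settings moved 4 medians. The TBK1 complex had -0.14 under DESeq2 and with no filter, which both add *DDX3X* with its doubtful low counts, and -0.042 and -0.043 in FPKM with pseudocounts of 1 and 0.1. Nucleases had 0.040 under DESeq2 and with no filter, which both add *DNASE1L3* and *DNASE2B*, with at most 1 and 3 counts in any library. With the length trend removed, cGAMP genes had -0.21 and Aicardi-Goutières genes -0.39, and the latter had -0.26 in FPKM with a pseudocount of 1. Where no construction is named, the cause was not tested. Precision is set by 2 libraries per group rather than by depth.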
